A study of Mus musculus with 24 samples.

Results

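The Slc25 genes encode mitochondrial carriers, and 40 genes whose symbol begins with Slc25a were listed in at least 1 of the 5 tables deposited for this study, out of 13162 genes listed in any table. All 40 were taken as members, with no filter on their values. Mitochondrial carriers are small proteins of the inner mitochondrial membrane that move nucleotides, phosphate, carboxylates, amino acids, cofactors and acylcarnitines between the cytosol and the matrix. Most act as exchangers, and they link pathways that are split by the membrane, such as fatty acid import for oxidation, citrate export for fat synthesis, and the exchange of ADP for ATP. Brown fat, the thermogenic fat depot, is rich in mitochondria, and its best known carrier is uncoupling protein 1, a relative of the Slc25 proteins that lets protons leak across the membrane and so releases heat.

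RNA was sequenced from whole interscapular brown adipose tissue of male C57BL/6 mice aged 10 to 12 weeks, collected at ZT10 of the light cycle. The Control group is Hdac3 floxed without Cre, and in the knockout (KO) group Cre under the Ucp1 promoter, a promoter of brown adipocytes, acts on floxed Hdac3, so that other cells of the depot are not targeted. Hdac3 encodes a histone deacetylase of nuclear corepressor complexes. Each genotype was kept at 22 °C throughout, or spent 24 h at 15 °C and then 24 h or 7 d back at 22 °C, giving 6 groups of 4 libraries (24 in all), and the stated question is whether a cold episode leaves a lasting effect in either genotype. Nothing in the labels says that the libraries of a group come from separate mice, and the p-values therefore measure only how these libraries vary.

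The authors deposited comparisons and group means, not values per library, so no spread between libraries can be given beside a mean. Means are in RPKM (reads normalised for gene length and sequencing depth), which allows genes to be compared per length. Fold changes and adjusted p-values are those of the authors' deposited tables, from edgeR, and a gene is said to have risen, fallen or passed when its adjusted p was under 0.05. Standard errors of a log2 fold change were rebuilt from the deposited p-values. Library totals recovered from the deposited means ran from 4637903 to 12538811 reads. Hdac3 itself was 2.59-fold lower in KO at 22 °C (adjusted p = 9.9e-21), 3.82-fold lower at 24 h (adjusted p = 4.6e-37) and 3.26-fold lower at 7 d (adjusted p = 6.4e-29) in the deposited tables. Ucp1, the defining gene of the tissue, had deposited means of 1607 RPKM in Control and 32.8 RPKM in KO at 22 °C, and did not pass between genotypes at 24 h (adjusted p = 0.78) or 7 d (adjusted p = 0.58). Summed means of 16 skeletal muscle markers were 191 to 326 RPKM at 22 °C and 24 h but 1033 RPKM in Control and 870 RPKM in KO at 7 d, a contrast over time that no deposited table tests. Between genotypes and between 24 h and 22 °C, 0 muscle markers passed by the deposited edgeR test (0 at an unadjusted p under 0.05). In a whole tissue, fewer cells of a type and less RNA per cell cannot be told apart.

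RefSeq lists 47 protein-coding Slc25a genes in the mouse, and all 40 members were found among them. Slc25a13, Slc25a18, Slc25a21, Slc25a31, Slc25a41, Slc25a43 and Slc25a54 were in none of the tables, whose lowest entries have 0.5 RPKM in the higher of the groups compared. By their highest group mean, 36 members reached 1 RPKM, 25 reached 10 RPKM and 10 reached 100 RPKM. The uncoupling proteins and Mtch1 and Mtch2 belong to the same superfamily under other symbols and are described separately.

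Slc25a4, Slc25a5, Slc25a20 and Slc25a1 reached the highest levels. Slc25a4 and Slc25a5 are the main ADP/ATP translocases, which bring ADP into the matrix and ATP out. The deposited mean of Slc25a4 was 341 RPKM in Control and 129 RPKM in KO at 22 °C, 402 and 289 RPKM at 24 h, and 356 and 293 RPKM at 7 d. That of Slc25a5 was 253 RPKM in Control and 242 RPKM in KO at 22 °C, 462 and 749 RPKM at 24 h, and 338 and 547 RPKM at 7 d. Slc25a4 was thus lowest in KO at 22 °C, while Slc25a5 was highest in KO during recovery. Slc25a20, which carries acylcarnitines into the matrix for oxidation, had deposited means of 252 RPKM in Control and 82.3 RPKM in KO at 22 °C, 401 and 419 RPKM at 24 h, and 305 and 299 RPKM at 7 d. Its genotypes were far apart at 22 °C and nearly level afterwards. Slc25a1, the citrate carrier, ran the other way, with deposited means of 96.0 RPKM in Control and 269 RPKM in KO at 22 °C, 278 and 157 RPKM at 24 h, and 352 and 222 RPKM at 7 d.

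The deposited means leave out the normalization factors that the fold changes include, so a ratio of means of KO to Control lies below the deposited log2 fold change by a median that reaches -0.24 at 22 °C. The sum over members was 1728 RPKM in Control and 1373 RPKM in KO at 22 °C, 2616 and 2695 RPKM at 24 h, and 2217 and 2377 RPKM at 7 d, from the deposited means. The 5 carriers of highest level in each group made up 60.0% to 68.6% of that sum. Slc25a4 led in Control at 22 °C and at 7 d, Slc25a1 led in KO at 22 °C, and Slc25a5 led in Control at 24 h and in KO at both recovery times. The ratio of Slc25a5 to Slc25a4 was 0.742, 1.15 and 0.949 in Control at 22 °C, 24 h and 7 d, and 1.88, 2.60 and 1.87 in KO, so Slc25a5 was the more abundant translocase in every KO group and in Control at 24 h. These paralogs are close in sequence and a pseudogene of Slc25a5 is annotated, and how shared reads were counted is not known from the sources used here, so the split between them is uncertain. Slc25a4 is also known as the muscle form of the translocase, and the muscle markers above were highest at 7 d, where the part of muscle RNA in its level was not tested.

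**Figure D1:**
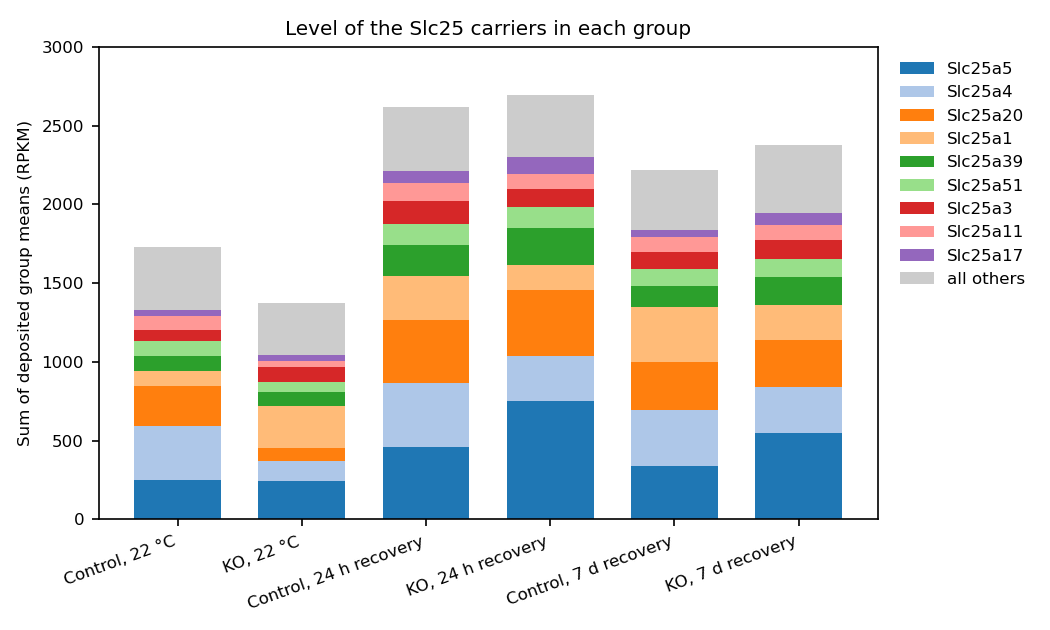
Stacked bars of the deposited group means (RPKM, vertical axis from 0) of the 40 carriers in the 6 groups, with 9 carriers of high level in colours and all others in grey, and no error because library values are not in the tables. The bar of KO at 22 °C is the lowest at 1373 RPKM, with a small Slc25a4 and Slc25a20 and a large Slc25a1 segment, and the bars at 24 h are the highest at 2616 and 2695 RPKM. The means leave out the normalization factors, which shifts ratios of KO to Control at 22 °C by a median log2 of -0.24.

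The members whose values separate the groups most clearly include Slc25a1, Slc25a25 and Slc25a34, and the 250 bases before their RefSeq start sites are printed because each holds 1 of the motifs searched. They were chosen after the values were seen. Positions are on GRCm38.p6, another build than the mm9 named in the submitters' processing notes, and all are on the minus strand: chr16:17928220-17928469 for Slc25a1, chr2:32424067-32424316 for Slc25a25 and chr4:141623835-141624084 for Slc25a34. Capitals mark an E-box (CACGTG) in Slc25a1, a cAMP response element (TGACGTCA) in Slc25a25 and, in Slc25a34, the nuclear receptor half-site AAGGTCA, which lies on the opposite strand and so reads TGACCTT.
Slc25a1: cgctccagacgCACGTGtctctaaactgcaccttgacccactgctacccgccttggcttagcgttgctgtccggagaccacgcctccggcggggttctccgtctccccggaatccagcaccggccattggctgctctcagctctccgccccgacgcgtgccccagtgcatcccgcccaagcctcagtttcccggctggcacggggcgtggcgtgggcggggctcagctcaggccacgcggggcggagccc
Slc25a25: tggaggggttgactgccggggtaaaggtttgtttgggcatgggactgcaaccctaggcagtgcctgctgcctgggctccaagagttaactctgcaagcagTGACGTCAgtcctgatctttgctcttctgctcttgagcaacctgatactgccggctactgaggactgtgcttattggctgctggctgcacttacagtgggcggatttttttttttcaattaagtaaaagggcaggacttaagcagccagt
Slc25a34: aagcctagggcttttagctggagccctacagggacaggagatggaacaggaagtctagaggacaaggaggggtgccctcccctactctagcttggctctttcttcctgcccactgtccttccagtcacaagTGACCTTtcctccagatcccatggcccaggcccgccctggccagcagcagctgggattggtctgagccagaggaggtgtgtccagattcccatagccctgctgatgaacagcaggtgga

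Promoter sequences were at hand for 30 members, which have 39 promoters in all, and 5 motifs were searched on both strands. Matches are counted by member, while the percentages are of promoters, so the 2 are not on the same base. CACGTG was found in 5 members (Slc25a1, Slc25a14, Slc25a15, Slc25a33 and Slc25a36) and in 6.02% of all 32851 RefSeq promoters of this length. TGACGTCA was found in 2 members (Slc25a25 and Slc25a36) and in 1.55% of all promoters. AAGGTCA was found in 1 member (Slc25a34) and in 4.08% of all promoters. It is contained in TNAAGGTCA, the longer half-site of estrogen-related receptors, which occurred in 1.14% of all promoters and in 0 member promoters, and the sterol regulatory element TCACNCCAC occurred in 1.05% of all promoters and in 0 member promoters. A match describes these letters only, and no match says nothing of the factor.

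At 22 °C, 18 of 39 listed carriers differed between KO and Control, 7 higher and 11 lower in KO, where 34.3% of the 12710 listed genes passed (16.3% higher and 18.0% lower). Their median deposited log2 fold change was -0.17, beside -0.013 over all listed genes. With a fold of at least 1.5, 7 carriers were lower, beside 12.4% of listed genes, and 7 were lower under the authors' own call (adjusted p under 0.01 and at least 1.5-fold), beside 11.0%. The highest folds were in Slc25a10, Slc25a25, Slc25a45 and Slc25a1, and the lowest in Slc25a48, Slc25a42, Slc25a35 and Slc25a20. By role, all 3 carboxylate carriers passed, 5 of 8 carriers of other nucleotides and cofactors were lower and 0 higher, and 0 of the 4 carriers of glutathione and iron passed by the deposited edgeR test (0 in both cases at an unadjusted p under 0.05).

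Among carboxylate carriers, Slc25a10, which exchanges dicarboxylates such as malate and succinate for phosphate, had the highest fold of the family. Its deposited mean was 4.92 RPKM in Control and 73.3 RPKM in KO at 22 °C, a 17.5-fold difference (log2 4.13, standard error 0.33, adjusted p = 3.3e-34). Slc25a1 exports citrate, the carbon source of cytosolic acetyl-CoA, and was 3.27-fold higher in KO (log2 1.71, standard error 0.22, adjusted p = 1.2e-13). Slc25a11, the oxoglutarate carrier of the malate-aspartate shuttle, was instead 2.02-fold lower in KO (deposited means of 89.8 RPKM in Control and 37.9 RPKM in KO, adjusted p = 4.1e-10). Slc25a10 overlaps the predicted gene Gm11788 on the opposite strand in GENCODE vM21, and whether the authors counted by strand is not known from the sources used here.

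The carriers of adenine nucleotides and phosphate did not move as a block. Slc25a4 was 2.25-fold lower in KO at 22 °C in the deposited table (log2 -1.17, standard error 0.16, adjusted p = 2.4e-11). Slc25a5 had a deposited log2 fold change of 0.17 (95% interval -0.07 to 0.42, adjusted p = 0.323). Slc25a3 brings phosphate into the matrix for ATP synthesis, and its deposited mean was 73.2 RPKM in Control and 97.3 RPKM in KO, 1.55-fold higher (adjusted p = 0.00014). Slc25a25 is a calcium-regulated carrier that exchanges ATP-Mg for phosphate. It had a deposited mean of 3.24 RPKM in Control and 21.3 RPKM in KO, an 8.02-fold difference (standard error 0.48 on the log2 scale, adjusted p = 4.4e-09). Its relatives Slc25a23 and Slc25a24 did not pass (deposited log2 fold changes of -0.43 and 0.29). Slc25a25 overlaps Naif1 on the opposite strand, whose deposited means lay between 0.458 and 0.769 RPKM and which passed in none of the tables.

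Slc25a20, the acylcarnitine carrier, was 2.61-fold lower in KO at 22 °C in the deposited table (log2 -1.38, standard error 0.14, adjusted p = 2.6e-20). It is grouped with Slc25a45, Slc25a47 and Slc25a48, which are related to it in sequence. Slc25a48, reported to import choline, fell from a deposited mean of 3.77 RPKM in Control to 0.211 RPKM in KO, a fitted 14.1-fold difference (adjusted p = 1.8e-16) that rests on about 2.93 reads per KO library. Slc25a45 went the other way, with 1.77 RPKM in Control and 5.52 RPKM in KO, 3.65-fold higher (deposited adjusted p = 1.3e-13). Slc25a47 was at 1.74 and 1.38 RPKM and did not pass.

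Cofactor carriers that passed at 22 °C were all lower in KO. Slc25a42 carries coenzyme A into the matrix, and its deposited mean was 39.0 RPKM in Control and 4.87 RPKM in KO, 6.77-fold lower (log2 -2.76, standard error 0.28, adjusted p = 9.2e-21). Smaller deposited differences were found for Slc25a16, linked to coenzyme A (1.30-fold), for Slc25a36, a pyrimidine nucleotide carrier (1.30-fold), and for Slc25a51, the NAD carrier (1.27-fold). Slc25a32, the folate or FAD carrier, and Slc25a33, another pyrimidine nucleotide carrier, did not pass (adjusted p = 0.085 and 0.158).

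Of 8 amino acid carriers, 1 was higher and 1 lower in KO at 22 °C. Slc25a22, a glutamate carrier, was 1.52-fold higher in KO (deposited means of 15.0 and 19.5 RPKM, adjusted p = 0.018), and Slc25a15, the ornithine carrier of the urea cycle, was 1.36-fold lower (5.60 and 3.50 RPKM, adjusted p = 0.038). Slc25a44, which imports branched-chain amino acids and is known for its use in brown fat, had deposited means of 28.0 RPKM in Control and 24.6 RPKM in KO and a log2 fold change of 0.05 (95% interval -0.24 to 0.34, adjusted p = 0.854). It passed in none of the 5 tables, and its 6 deposited group means lay between 24.6 and 30.5 RPKM. Of the uncoupling protein relatives, Slc25a30 was 2.11-fold higher in KO (4.62 and 8.26 RPKM, adjusted p = 6.3e-05). Slc25a35, whose substrate is not assigned here, was 4.62-fold lower (14.5 and 2.66 RPKM, adjusted p = 1.3e-18). Rangrf overlaps it on the opposite strand and was 2.81-fold lower in KO as well (3.67 and 1.08 RPKM, adjusted p = 7.5e-05 in the deposited table), and reads in their overlap, at most 258 bases of an exon in GENCODE vM21 beside a deposited length of 1827 bases for Slc25a35, cannot be told apart without the strand setting.

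**Figure D2:**
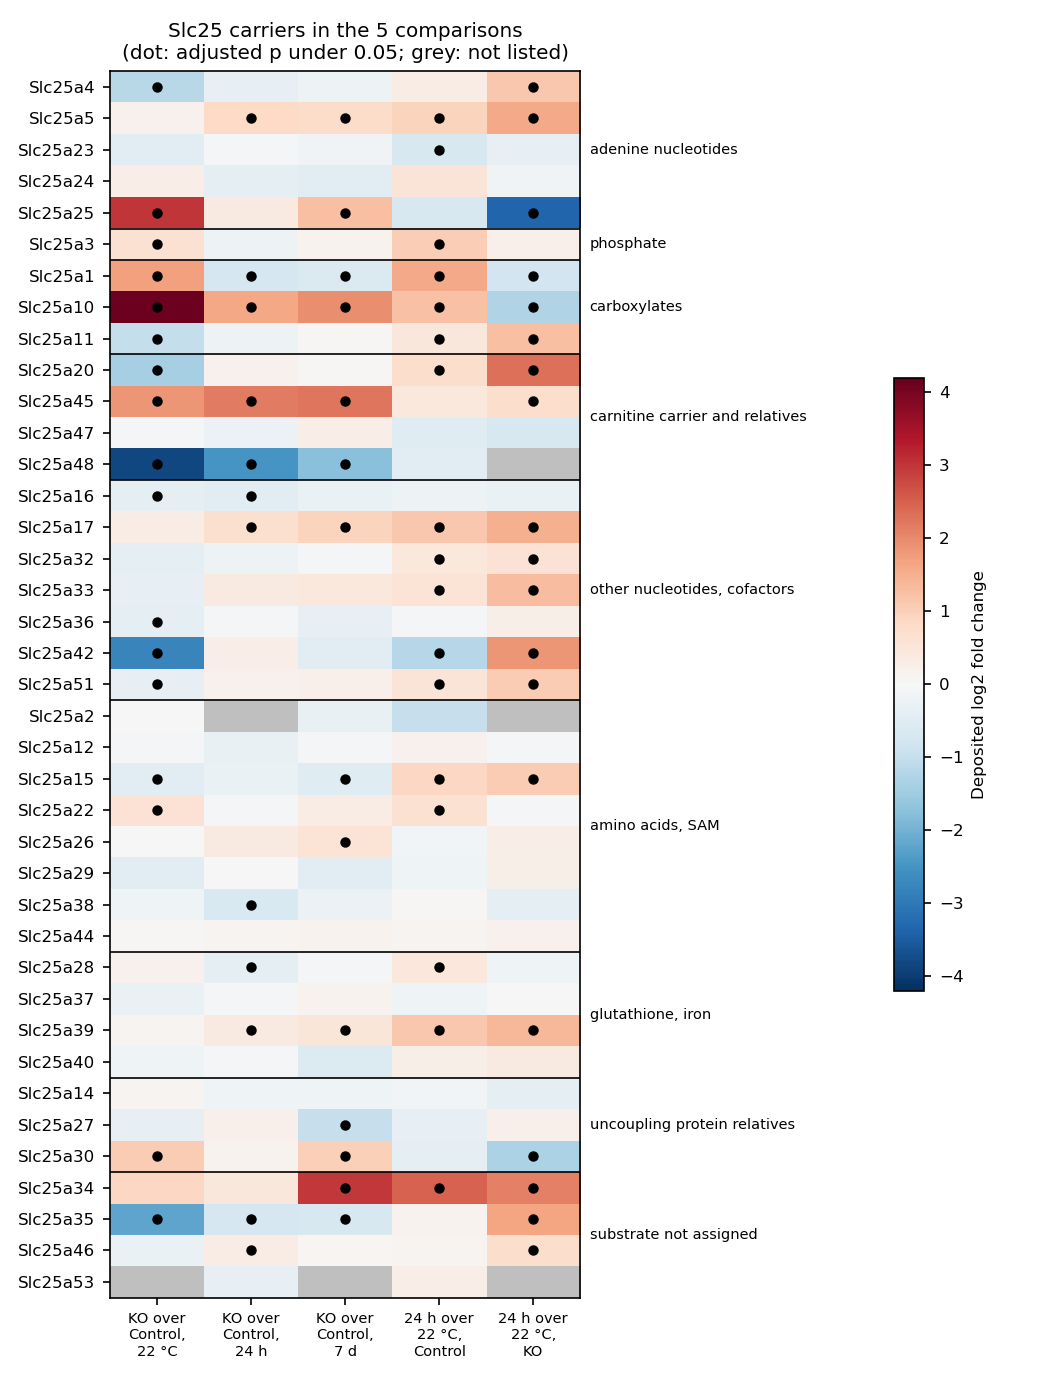
Deposited log2 fold change (colour) of 39 carriers (rows, grouped by substrate) in the 5 comparisons (columns), where a dot marks an adjusted p under 0.05 and grey a gene not listed. Slc25a10 and Slc25a45 are red and Slc25a35 and Slc25a48 blue in all 3 genotype columns, and Slc25a1 changes from red at 22 °C to blue during recovery.

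After 24 h of recovery, 12 of 39 listed carriers differed between KO and Control, 6 higher and 6 lower, where 18.5% of 12657 listed genes passed (10.5% higher and 7.96% lower). The median deposited log2 fold change was -0.077, beside -0.051 over all listed genes. Under the authors' own call, 7 carriers passed, 3 of them lower, beside 8.41% of listed genes (3.29% lower). Slc25a45 was at 2.28 RPKM in Control and 9.37 RPKM in KO, 4.50-fold higher (deposited log2 2.17, standard error 0.22, adjusted p = 2.9e-20). Slc25a10 was 3.07-fold higher (11.3 and 31.2 RPKM, adjusted p = 1.5e-06) and Slc25a5 1.78-fold higher (adjusted p = 2.0e-09). Slc25a17, a peroxisomal carrier of coenzyme A and related nucleotides, was 1.60-fold higher (74.5 and 108 RPKM, deposited adjusted p = 0.0012). Slc25a39 imports glutathione into mitochondria and was 1.29-fold higher (199 and 234 RPKM, adjusted p = 0.039), and Slc25a46, an outer membrane protein tied to mitochondrial dynamics, was 1.25-fold higher (adjusted p = 0.048). B930094E09Rik overlaps Slc25a46 on the opposite strand, by at most 374 bases of an exon in GENCODE vM21. Reads there cannot be told apart without the strand setting.

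The 6 that were lower in KO at 24 h came from several classes. Slc25a48 was 5.60-fold lower (2.62 and 0.422 RPKM, deposited adjusted p = 5.0e-08) and Slc25a35 1.63-fold lower (15.2 and 8.52 RPKM, adjusted p = 0.011). Slc25a1 was 1.62-fold lower in the deposited table (log2 -0.70, standard error 0.21, adjusted p = 0.0098), the opposite of its direction at 22 °C. Slc25a38, a glycine carrier needed for haem synthesis, was 1.57-fold lower (adjusted p = 0.0079), Slc25a16 1.37-fold lower (adjusted p = 0.0036), and Slc25a28, the iron carrier mitoferrin 2, 1.33-fold lower (adjusted p = 0.031). Slc25a4 (adjusted p = 0.134), Slc25a20 (0.385), Slc25a42 (0.554), Slc25a25 (0.682) and Slc25a3 (0.39) did not pass at 24 h by the deposited edgeR test.

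After 7 d, 14 of 39 listed carriers differed, 9 higher and 5 lower in KO, where 15.3% of 12467 listed genes passed (9.18% higher and 6.14% lower), with a median deposited log2 fold change of 0.034 beside -0.012 over all listed genes. This count was 9, with 1 lower, at an adjusted p under 0.01, which 9.67% of listed genes met (3.30% lower), and 7, with 1 lower, under the authors' own call, which 7.31% of listed genes met (2.63% lower). Counting only genes with a mean of 5 RPKM or more in the higher of the groups compared, 3 carriers were lower, beside 6.52% of those genes. Slc25a34, whose substrate is not assigned here, had the highest fold. Its deposited mean was 3.54 RPKM in Control and 26.4 RPKM in KO, 7.78-fold higher (log2 2.96, standard error 0.41, adjusted p = 4.7e-11). Slc25a45 was 4.75-fold higher (1.89 and 8.74 RPKM, adjusted p = 1.0e-19) and Slc25a10 3.85-fold higher (9.26 and 33.9 RPKM, adjusted p = 7.2e-09). Slc25a25 was 2.41-fold higher (1.82 and 4.15 RPKM, adjusted p = 0.045), Slc25a30 2.02-fold (adjusted p = 0.00076), Slc25a17 1.92-fold (adjusted p = 3.5e-06) and Slc25a5 1.70-fold (adjusted p = 8.4e-08) in the deposited table. Slc25a26, which imports S-adenosylmethionine for methylation in the matrix, was 1.47-fold higher (10.3 and 14.6 RPKM, adjusted p = 0.009), and Slc25a39 1.41-fold higher (adjusted p = 0.0043). Lrig1 overlaps Slc25a26 on the opposite strand, by at most 139 bases of an exon. Its deposited means at 7 d were 12.3 RPKM in Control and 15.9 RPKM in KO, and it did not pass. Reads in this overlap cannot be told apart without the strand setting.

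Those lower in KO at 7 d were Slc25a48 (3.36-fold, 2.32 and 0.637 RPKM, adjusted p = 0.00021), Slc25a27 (1.95-fold, 1.00 and 0.493 RPKM, adjusted p = 0.042), Slc25a35 (1.59-fold, adjusted p = 0.021), Slc25a1 (1.52-fold, adjusted p = 0.036) and Slc25a15 (1.42-fold, adjusted p = 0.024) in the deposited table. Slc25a27 is an uncoupling protein relative best known from neurons, and its level was low in all groups. Across the 3 times, Slc25a10 and Slc25a45 were higher in KO each time and Slc25a35 and Slc25a48 lower each time. Slc25a1 was the 1 carrier that passed in both directions, higher in KO at 22 °C and lower at 24 h and 7 d. Shares of all listed genes with these patterns across the times were not computed. The 3 genotype comparisons share no library with each other.

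**Figure D3:**
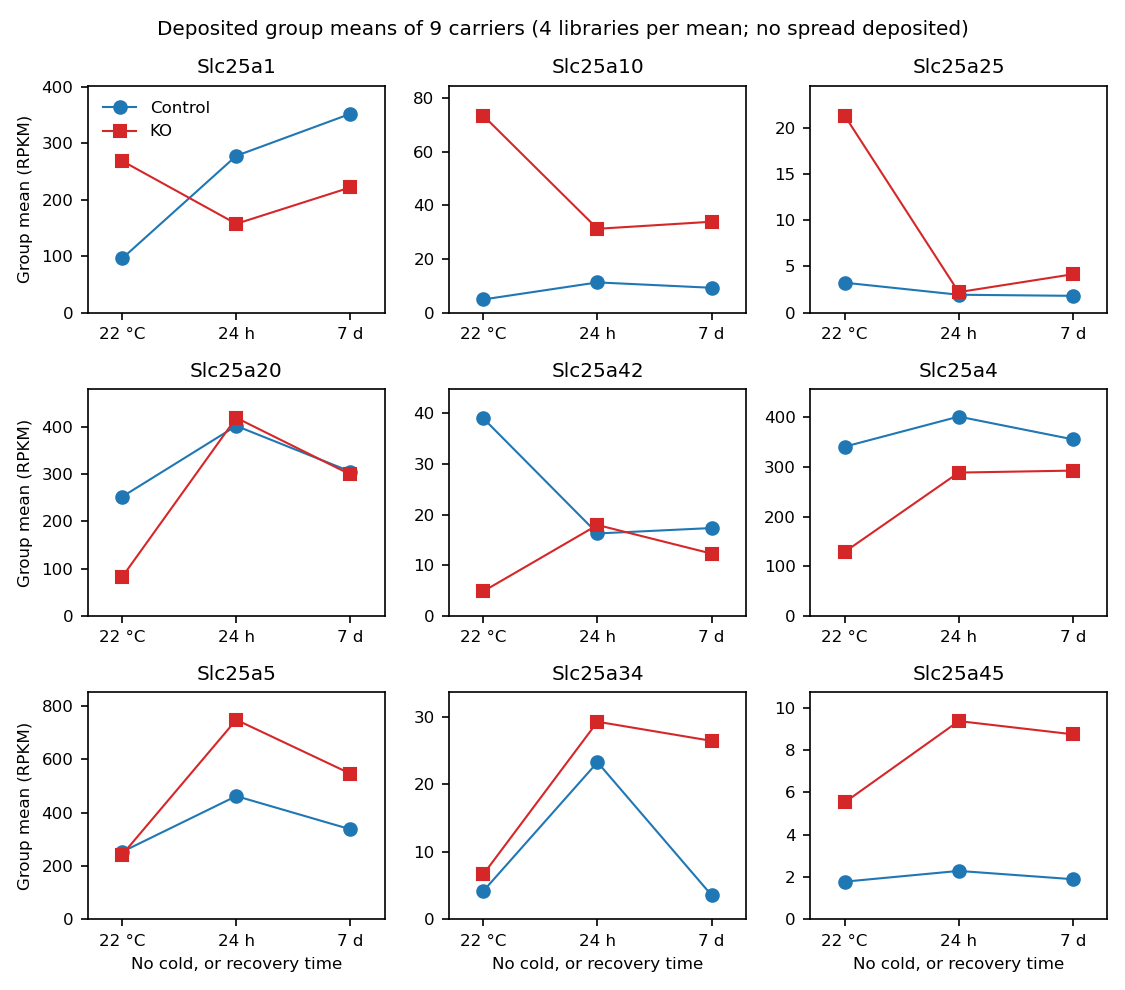
Deposited group means (RPKM, vertical axes from 0) of 9 selected carriers without cold (22 °C) and at 24 h and 7 d of recovery, with blue circles for Control and red squares for KO, lines that join the groups of a genotype for reading only, and no error because library values are not in the tables. Slc25a1 lies above Control in KO at 22 °C and below it later, and Slc25a34 stands at 23.2 RPKM in Control and 29.2 RPKM in KO at 24 h, then at 3.54 RPKM in Control and 26.4 RPKM in KO at 7 d.

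The KO effect itself was compared between times from the deposited fold changes and their rebuilt errors, with Benjamini-Hochberg adjustment over all genes tested. Between 24 h and 22 °C, 15 of 35 carriers that could be tested differed, 10 with a more positive and 5 with a more negative KO effect at 24 h, where 17.6% of genes differed (10.6% positive and 6.96% negative). The KO effect of Slc25a42 was higher at 24 h by 3.03 on the log2 scale (standard error 0.38, adjusted p = 3.6e-13), that of Slc25a20 by 1.58 (standard error 0.20, adjusted p = 1.3e-12) and that of Slc25a35 by 1.5 (adjusted p = 5.3e-05). For these 3 carriers the deficit in KO at 22 °C was smaller at 24 h or no longer past the threshold. The difference was -2.64 for Slc25a25 (adjusted p = 9.3e-04), -2.51 for Slc25a10 (adjusted p = 8.1e-08) and -2.41 for Slc25a1 (adjusted p = 4.8e-13). Slc25a45, also higher in KO at 22 °C, had a difference of 0.30 that did not pass (adjusted p = 0.62).

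Between 7 d and 22 °C, 13 of 37 carriers differed in KO effect, 11 positive and 2 negative, where 14.8% of genes differed (9.53% positive and 5.29% negative). Both contrasts use the same libraries at 22 °C. Slc25a34 (2.10 on the log2 scale, standard error 0.56, adjusted p = 0.0026) and Slc25a48 (2.07, standard error 0.59, adjusted p = 0.0056) passed at 7 d. Between 24 h and 22 °C, Slc25a34 did not pass and Slc25a48 could not be tested. The KO value of Slc25a48 at 22 °C came from about 2.93 reads per library. Between 7 d and 24 h, 1 of 37 carriers differed, Slc25a34, whose KO effect was higher at 7 d by 2.47 on the log2 scale (standard error 0.55, adjusted p = 0.017), where 0.201% of genes differed (0.115% positive and 0.0863% negative). At an adjusted p under 0.01, 0 carriers differed in this last contrast, and 2 had an unadjusted p under 0.05.

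Recovery was compared with 22 °C within each genotype at 24 h. In Control, 17 of 40 carriers passed, 15 higher and 2 lower, where 21.8% of 12830 listed genes passed (13.1% higher and 8.67% lower), with a median deposited log2 fold change of 0.22 beside 0.013 over all listed genes. Under the authors' own call the count was 11, with 9 higher, beside 10.0% of listed genes (6.47% higher). In KO, 20 of 37 passed, 16 higher and 4 lower, where 41.9% of 12577 listed genes passed (22.1% higher and 19.8% lower), with a median of 0.25 beside -0.024. These tables share libraries at 22 °C and 24 h with the genotype comparisons above, but not with each other. Macrophage and proliferation markers moved with recovery. By edgeR, 10 of 13 macrophage markers rose in Control (summed deposited means of 147 and 314 RPKM). In KO, 0 of 13 rose and 1 fell (170 and 198 RPKM, with 1 higher at an unadjusted p under 0.05). Of proliferation markers, 7 of 9 rose in Control (3.63 and 16.7 RPKM) and 5 of 7 in KO (3.22 and 11.2 RPKM). Neither a difference between genotypes in these markers nor their part in the levels of the carriers was tested.

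The 10 carriers higher at 24 h in both genotypes were Slc25a5, Slc25a11, Slc25a15, Slc25a17, Slc25a20, Slc25a32, Slc25a33, Slc25a34, Slc25a39 and Slc25a51. The share of all listed genes higher in both was not computed. The shares higher were 13.1% in Control and 22.1% in KO, each for 1 genotype alone, so neither is a like measure for the 10. Slc25a34 had the highest fold in Control, from 4.17 to 23.2 RPKM (5.59-fold, deposited log2 2.48, standard error 0.40, adjusted p = 3.8e-08), and was 4.32-fold higher in KO, from 6.65 to 29.2 RPKM (log2 2.11, standard error 0.39, adjusted p = 5.0e-07). Slc25a20 rose 1.66-fold in Control (adjusted p = 6.9e-06) and 4.97-fold in KO (adjusted p = 3.8e-53) in the deposited tables. Slc25a39 rose 2.20-fold in Control (adjusted p = 1.3e-13) and 2.66-fold in KO (adjusted p = 2.7e-22), and Slc25a17 rose 2.18-fold (adjusted p = 1.6e-08) and 2.81-fold (adjusted p = 6.7e-16). Slc25a5 rose 1.91-fold in Control (adjusted p = 2.9e-11) and 3.02-fold in KO (adjusted p = 5.3e-34), while Slc25a4 rose 2.19-fold in KO (adjusted p = 8.1e-11) and had a deposited log2 fold change of 0.31 in Control (95% interval -0.01 to 0.63). Within KO, both translocases were therefore higher at 24 h than at 22 °C, and within Control Slc25a5 alone of the pair passed. Folds in Control and KO were 1.38 and 2.38 for Slc25a11, 1.49 and 2.44 for Slc25a33, and 1.45 and 2.09 for Slc25a51 in the deposited tables, and the rise of each was larger in KO by the test of the difference (adjusted p = 0.0026, 0.035 and 0.028). Those of Slc25a15 (1.85 and 2.09) and Slc25a32 (1.36 and 1.51) had no difference past the threshold.

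Slc25a1, Slc25a10 and Slc25a42 moved in opposite directions in the genotypes. Slc25a1 rose 3.02-fold in Control (log2 1.59, standard error 0.22, adjusted p = 4.8e-11) and fell 1.76-fold in KO (adjusted p = 0.00062) in the deposited tables. Slc25a10 rose 2.36-fold in Control (adjusted p = 0.00047) and fell 2.41-fold in KO (adjusted p = 6.8e-05). Slc25a42 fell 2.28-fold in Control (adjusted p = 0.00015) and rose 3.59-fold in KO (adjusted p = 2.6e-10). The group means of all 3 were closer between genotypes at 24 h than at 22 °C. Slc25a25 fell 9.97-fold in KO, from 21.3 to 2.22 RPKM (deposited log2 -3.32, standard error 0.48, adjusted p = 9.3e-11), and did not pass in Control (3.24 and 1.93 RPKM, adjusted p = 0.317).

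Other carriers that passed in 1 genotype included Slc25a3, 2.06-fold higher in Control (adjusted p = 5.0e-10) and at a deposited log2 fold change of 0.20 in KO (95% interval -0.09 to 0.49), with a difference between genotypes of -0.84 (adjusted p = 9.3e-04). Slc25a35 rose 3.12-fold in KO (adjusted p = 1.1e-10), where the overlapping Rangrf rose 2.12-fold (adjusted p = 0.0067) in the deposited table. Slc25a30 fell 2.49-fold in KO (adjusted p = 9.2e-07), and the difference from Control did not pass (adjusted p = 0.053). Slc25a23, a calcium-regulated ATP-Mg carrier, fell 1.59-fold in Control (adjusted p = 0.0039) and was at a deposited log2 fold change of -0.33 in KO. Slc25a22 and Slc25a28 rose in Control (1.57-fold and 1.35-fold), and the difference from KO passed for Slc25a28 (-0.61, adjusted p = 0.026). Slc25a46 rose 1.66-fold in KO and differed from Control (0.61, adjusted p = 0.0042), and Slc25a45 rose 1.66-fold in KO with a difference from Control that was tested and did not pass (adjusted p = 0.62).

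**Figure D4:**
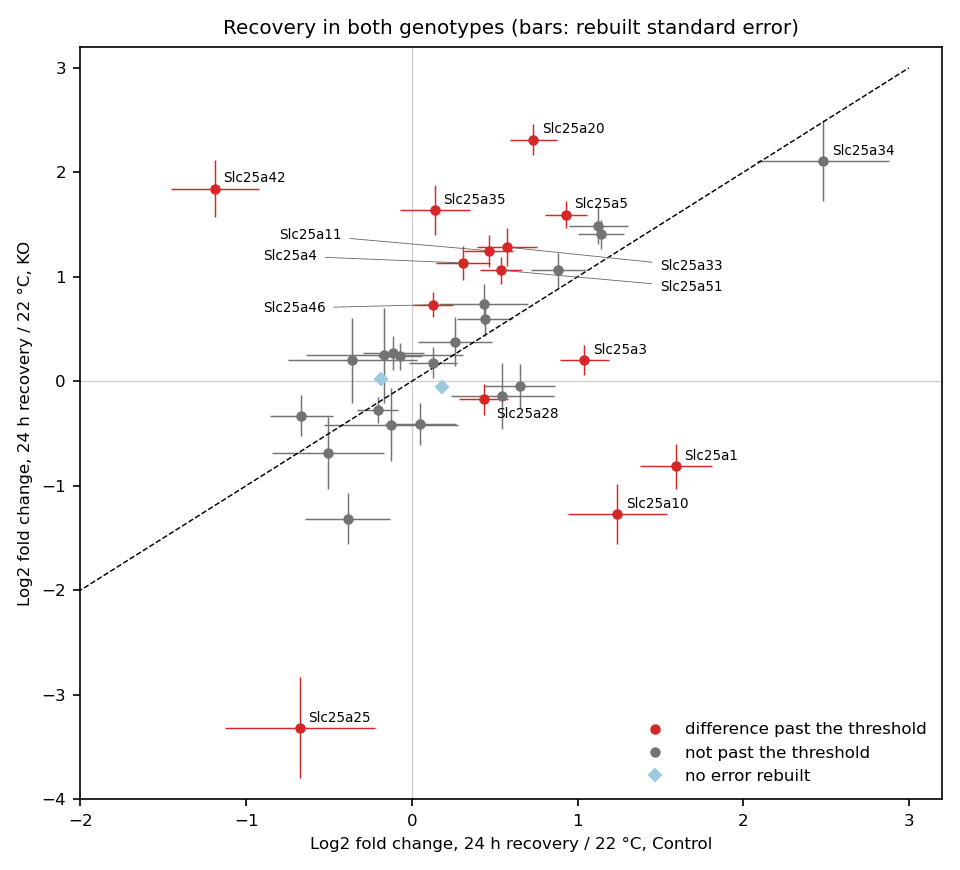
Deposited log2 fold change of single carriers between 24 h of recovery and 22 °C, Control on the horizontal and KO on the vertical axis, with bars for the rebuilt standard error and a dashed line of equal change; 2 carriers with no rebuilt error are blue diamonds. Red points are carriers whose difference between genotypes passed, Slc25a1 and Slc25a10 lie at the lower right, Slc25a42 at the upper left, and Slc25a34 is named although its difference did not pass, because it has the highest fold in Control.

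No deposited table compares 7 d with 22 °C or with 24 h within a genotype, so these are ratios of deposited means, centred on the median over all genes, with no test. In Control, the ratio of 7 d to 22 °C was above the 95th percentile of all genes for Slc25a1 (log2 1.99), Slc25a10 (1.03) and Slc25a15 (0.74), and below the 5th percentile for Slc25a42 (-1.05) and Slc25a25 (-0.72). Slc25a1 in Control therefore stood at 352 RPKM at 7 d, above its 96.0 RPKM without cold. In KO, 8 carriers lay above the 95th percentile, led by Slc25a34 (1.94), Slc25a20 (1.81), Slc25a35 (1.71) and Slc25a48 (1.54), and Slc25a25 (-2.41) and Slc25a10 (-1.17) lay below the 5th. The ratio of Slc25a48 is near the floor, with about 2.93 reads per KO library at 22 °C and 8.45 at 7 d. The centred median over members was 0.18 in Control and 0.26 in KO. Against 24 h, Slc25a34 had the lowest ratio in Control (log2 -2.65, from 23.2 to 3.54 RPKM) and a ratio of -0.16 in KO (from 29.2 to 26.4 RPKM), so its level had returned to near the unexposed value in Control and not in KO.

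Genes that work beside the carriers were described by lists, to be read against the shares of all listed genes: 16.3% higher and 18.0% lower in KO at 22 °C, 10.5% and 7.96% at 24 h, 9.18% and 6.14% at 7 d, 13.1% and 8.67% on recovery in Control, and 22.1% and 19.8% on recovery in KO. Of 5 listed family members under other symbols, 1 was higher and 3 lower in KO at 22 °C, where Mtch2, an outer membrane protein, was 1.59-fold lower (deposited adjusted p = 6.7e-05) and Ucp3 1.67-fold higher (adjusted p = 0.00041). Of 25 other mitochondrial transport genes, 3 were higher and 10 lower in KO at 22 °C, 2 and 4 at 24 h, and 1 and 3 at 7 d, and 10 rose and 1 fell on recovery in Control and 16 rose and 2 fell in KO. Letmd1, an inner membrane protein of brown fat, was 5.11-fold lower in KO at 22 °C (adjusted p = 1.1e-43), while Sfxn1, a mitochondrial serine transporter, was 3.04-fold higher (adjusted p = 2.7e-24). Of 24 protein import genes, 0 were higher and 12 lower in KO at 22 °C, 7 and 0 at 24 h, and 5 and 0 at 7 d, and 13 rose in Control and 22 in KO on recovery. At an unadjusted p under 0.05 in edgeR, 1 import gene was higher in KO at 22 °C, and 0 were lower at 24 h or 7 d. Tomm5, of the outer membrane translocase that carriers pass through, was 2.84-fold lower in KO at 22 °C (deposited adjusted p = 8.8e-15).

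Among 16 enzymes whose substrates the carriers move, 1 was higher and 9 lower in KO at 22 °C, 4 higher at 24 h, and 3 higher and 1 lower at 7 d, beside 34.3%, 18.5% and 15.3% of all listed genes in either direction. On recovery 11 rose and 2 fell in Control, and 12 rose in KO, beside 21.8% and 41.9% of all listed genes. Cpt1b, which makes the acylcarnitines that Slc25a20 carries, was 4.28-fold lower in KO at 22 °C (deposited adjusted p = 1.6e-41), beside 2.61-fold for Slc25a20. Me1, the cytosolic malic enzyme, was 7.38-fold higher (adjusted p = 2.8e-20), beside 17.5-fold for Slc25a10 and 3.27-fold for Slc25a1. Other enzymes of the same steps went otherwise at 22 °C. By edgeR, Acly (adjusted p = 0.23), Cpt2 (0.16) and Crat (0.88) did not pass, and Cs was 1.87-fold lower in KO (1.3e-11). Summed deposited means of 15 genes listed as brown adipocyte markers were 6988 RPKM in Control and 3345 RPKM in KO at 22 °C. The list includes genes not particular to brown fat, such as Adipoq, at 840 RPKM in Control and 1203 RPKM in KO. Of the list, 4 genes were higher in KO: Elovl3, and Adrb3, Plin1 and Adipoq, which are not particular to brown fat. The 6 lower were Ucp1, Cox7a1, Cidea, Cox8b, Ppargc1a and Ebf2. The part of the list in the levels of the carriers was not tested.

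In all, 30 carriers passed in at least 1 table and 10 in none. The share of all listed genes that passed in at least 1 comparison was not computed. Shares in single comparisons ran from 15.3% to 41.9%. They are no like measure for the 30 carriers, which had several comparisons in which to pass. The 10 carriers that passed in none were Slc25a2, Slc25a12, Slc25a14, Slc25a24, Slc25a29, Slc25a37, Slc25a40, Slc25a44, Slc25a47 and Slc25a53. Slc25a44 had the highest level of these, and the other 9 had deposited means under 3 RPKM in every group listed. Slc25a12, the aspartate-glutamate carrier that works with Slc25a11 in the malate-aspartate shuttle, had a deposited log2 fold change of -0.08 at 22 °C with a 95% interval of -1.33 to 1.16, so a difference of 2-fold in either direction was not detectable. Slc25a2, an ornithine carrier, and Slc25a53 were near the limit of listing, with highest means of 0.542 and 0.520 RPKM. Slc25a37, the iron carrier mitoferrin 1, was at 2.06 to 2.98 RPKM, beside 12.2 to 19.5 RPKM for its relative Slc25a28.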

How the data were processed

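The data are 24 RNA libraries of interscapular brown fat in 6 groups of 4, placed by their labels. Ribosomal RNA was depleted before library preparation, per the labels' protocols. The submitters' processing notes name STAR, featureCounts, edgeR and mm9, and versions and settings are not given in the sources used here. Per the file headers, the authors deposited log2 fold changes, p-values and adjusted p-values from 5 edgeR comparisons, with 2 group means each and a text call of their own, read from the values as an adjusted p under 0.01 and a fold of at least 1.5. The deposited means have no unit in the headers and were read as RPKM of the authors. The authors' adjusted p-values run over 13414 genes, more than any table lists. These tables have no library values, so no count test could be made and 0.05 on the authors' adjusted p was the threshold.

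All Slc25a symbols were taken, and counts, sums and medians cover them all, but the values of 1 member are not reported here. The members and gene lists were chosen with earlier results of these data known. Every member could be named with its means, with statistics for those past the threshold, for up to 6 per direction and comparison with the largest folds, and for Slc25a1, Slc25a3, Slc25a4, Slc25a5, Slc25a20, Slc25a25, Slc25a39 and Slc25a44 in any case. Lists are given as counts with up to 4 members by smallest p, and further members are named where a list did not move as 1. Substrate classes were assigned by hand from general knowledge.

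A standard error was rebuilt as the deposited log2 fold change over the normal score of its p-value, for p up to 0.9. The difference of a pair of KO effects was divided by its rebuilt error, with a normal p and Benjamini-Hochberg adjustment over the 10923, 10591 and 10425 genes tested. For the difference of 24 h and 22 °C, both recovery tables were used, which share no library. On simulated data, 200 genes were shifted by 2 on the log2 scale. For 24 h less 22 °C, 167 of 193 testable genes were recovered, with 12 others called. For 7 d less 22 °C, 172 of 195 were recovered, with 18 others called. For 7 d less 24 h, 173 of 192 were recovered, with 8 others called. In each difference, 0 were recovered in the wrong direction. These numbers describe the calculation only. Whether errors rebuilt from the authors' p-values match the spread between libraries was not tested, because no library values were at hand. Ratios of deposited means differ from the authors' log2 fold changes by a median of -0.24, -0.14, -0.066, -0.064 and 0.034 for the genotype tables (22 °C, then 24 h, then 7 d) and the recovery tables (Control, then KO), and ratios at 7 d were centred on their median.

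Library totals were read from the smallest steps of low deposited means and are not tied to replicates. Listed genes held 65.5% to 75.6% of them. Promoters are from RefSeq (GRCm38.p6) and overlapping genes from GENCODE vM21, where 10 members overlap an exon of another gene, 9 on the opposite strand. Alternatives were another threshold, a minimum fold or mean, adjustment over listed genes, ratios of means, members in all 5 tables, and, added after seeing the data, the authors' own call. Python 3.11.15, pandas 2.3.3, NumPy 2.4.6, SciPy 1.17.1 and matplotlib 3.10.9 were used.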

Additional observations from a re-analysis of the deposited data

Results flagged for a closer look

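For the carriers that follow, the KO effect differed between times by a test of the difference itself, with values on the log2 scale. At 24 h less 22 °C, the KO effect was more positive for Slc25a42 (3.03), Slc25a20 (1.58), Slc25a35 (1.5), Slc25a4 (0.82), Slc25a11 (0.79), Slc25a33 (0.71), Slc25a5 (0.66), Slc25a46 (0.61) and Slc25a51 (0.52). It was more negative for Slc25a25 (-2.64), Slc25a10 (-2.51), Slc25a1 (-2.41), Slc25a3 (-0.84) and Slc25a28 (-0.61). With the error taken from the genotype tables in place of the recovery tables, the carriers named here passed and Slc25a30 passed as well.

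At 7 d less 22 °C, it was more positive for Slc25a42 (2.33), Slc25a34 (2.10), Slc25a48 (2.07), Slc25a35 (1.54), Slc25a20 (1.42), Slc25a11 (1.05), Slc25a4 (0.95), Slc25a33 (0.78), Slc25a5 (0.59) and Slc25a51 (0.57), and more negative for Slc25a1 (-2.31) and Slc25a10 (-2.18). At 7 d less 24 h, it was more positive for Slc25a34 (2.47). The KO value of Slc25a48 at 22 °C rests on about 2.93 reads per library, and its fitted fold there is no bound.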

How the results depend on the processing

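At 22 °C, 7 members instead of 11 were lower in KO with a fold of at least 1.5 (12.4% of listed genes), and 7 under the authors' own call (11.0%). The median log2 fold change there was -0.39 from uncentred ratios of means instead of -0.17. Under the authors' own call, 7 members instead of 12 passed at 24 h with 3 lower, 7 instead of 14 at 7 d with 1 lower, and 11 instead of 17 in Control recovery with 9 higher. At an adjusted p under 0.01, 9 passed at 7 d with 1 lower, and 0 differed in KO effect between 7 d and 24 h by the normal test on edgeR values, where 2 had an unadjusted p under 0.05. With a mean of at least 5 RPKM, 3 were lower at 7 d. The median at 7 d turned from 0.034 to -0.033 with uncentred ratios. Of 81 single-member values, 14 moved by more than their error with uncentred ratios, 0 with centred ones, and 0 reversed. All other counts stayed within 1.5 times in the alternatives run. No paired analysis was possible because the files hold group means and no library values, and for the same reason leaving out a library, another normalization and another count test were not run. With 4 libraries a group and totals of 4637903 to 12538811 reads, members under 1 RPKM have wide intervals.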
